A study of Mus musculus with 48 samples.

Results

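The UDP-glucuronosyltransferase 2b (Ugt2b) family was followed in mouse liver across 4 levels of dichloroacetic acid (DCA), in pieces of the same livers kept frozen (FROZ) or fixed in formalin and embedded in paraffin (FFPE). Members were taken by name, as every gene whose symbol is Ugt2b followed by a number. The FROZ table lists 7 of them (Ugt2b1, Ugt2b5, Ugt2b34, Ugt2b35, Ugt2b36, Ugt2b37 and Ugt2b38) among 11275 genes, and the FFPE table lists 4 (Ugt2b5, Ugt2b34, Ugt2b35 and Ugt2b36) among 6673. The family, and the contrast in it between the falling Ugt2b38 and the rising Ugt2b35, were chosen by the measured differences between DCA and control livers in these same libraries, so those differences are a description that supports nothing further.

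Targeted RNA-Seq (TempO-Seq) was measured in 48 libraries from 24 male B6C3F1 mice aged 4 weeks, with 1 FROZ and 1 FFPE library from each animal. B6C3F1 mice are a cross between inbred strains that is widely used in cancer bioassays. In this assay, 2 oligos that lie next to each other on a transcript are joined by ligase, and the joined products are amplified and sequenced. There were 6 vehicle controls and 6 animals at each of 198, 313 and 427 mg/kg-d (1, 2 and 3.5 g/L DCA in the drinking water for 6 days). DCA, a by-product of water chlorination, inhibits pyruvate dehydrogenase kinase and causes liver tumours in mice. FROZ RNA came from mixed lobes (left lateral, caudate and right medial) and FFPE lysate from the left lateral and right medial lobes, so lobe and preservation cannot be told apart. The FROZ assay used isolated RNA from tissue stored frozen, and the FFPE assay used lysed sections of blocks stored at ambient temperature. Storage and sample preparation therefore cannot be told apart from preservation either.

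UDP-glucuronosyltransferases sit in the membrane of the endoplasmic reticulum and transfer glucuronic acid from UDP-glucuronate to small lipophilic molecules, which makes them soluble enough to leave in bile and urine. The 2b enzymes act on steroid hormones, bile acids and drugs, and liver is the main site of their expression. In mouse liver, Ugt2b1 and Ugt2b38 are known as genes expressed more in males than in females, whereas Ugt2b34, Ugt2b35 and Ugt2b36 are known to respond to inducers of drug metabolism.

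All 7 genes lie in 1 cluster on chromosome 5 (GRCm38, the mm10 build), between positions 86889767 and 87424203, a span of 534437 bases. In the order of position, with gene bounds from GENCODE, they are Ugt2b34 (chr5:86889767-86906937), Ugt2b1 (chr5:86916638-86926530), Ugt2b35 (chr5:87000860-87013275), Ugt2b36 (chr5:87065927-87092555), Ugt2b5 (chr5:87124960-87140318), Ugt2b37 (chr5:87240493-87254804) and Ugt2b38 (chr5:87409942-87424203). Ugt2b35 is read from the plus strand and the other 6 from the minus strand. Each has 6 exons in its reference transcript, and coding sequences run from 1587 to 1596 bases.

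The sequences just upstream of the genes are shown because all 7 carry the same spaced pair of letters although the genes moved in opposite directions with DCA. Each line gives the 100 bases before the start of the gene, 5′ to 3′ on the strand of the gene, from RefSeq on GRCm38.p6. RefSeq and GENCODE place the starts of Ugt2b1, Ugt2b5 and Ugt2b37 slightly apart. Capitals mark GTTA and TTAAC with 4 bases between them.
Ugt2b38 (chr5:87424204-87424303, minus strand): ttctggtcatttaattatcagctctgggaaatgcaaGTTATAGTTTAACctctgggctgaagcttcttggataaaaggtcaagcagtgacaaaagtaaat
Ugt2b37 (chr5:87254789-87254888, minus strand): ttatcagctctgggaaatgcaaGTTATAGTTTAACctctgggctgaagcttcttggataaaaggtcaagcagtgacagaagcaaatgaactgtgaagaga
Ugt2b5 (chr5:87140341-87140440, minus strand): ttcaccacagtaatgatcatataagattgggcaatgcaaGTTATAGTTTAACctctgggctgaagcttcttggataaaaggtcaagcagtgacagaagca
Ugt2b36 (chr5:87092556-87092655, minus strand): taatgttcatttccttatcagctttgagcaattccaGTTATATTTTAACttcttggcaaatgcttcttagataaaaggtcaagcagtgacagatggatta
Ugt2b35 (chr5:87000760-87000859, plus strand): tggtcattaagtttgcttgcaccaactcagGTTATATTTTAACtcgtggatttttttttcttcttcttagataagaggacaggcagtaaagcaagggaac
Ugt2b1 (chr5:86926504-86926603, minus strand): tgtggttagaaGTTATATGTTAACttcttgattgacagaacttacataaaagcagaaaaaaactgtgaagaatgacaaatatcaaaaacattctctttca
Ugt2b34 (chr5:86906938-86907037, minus strand): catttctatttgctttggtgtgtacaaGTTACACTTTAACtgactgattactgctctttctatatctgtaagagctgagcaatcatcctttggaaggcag

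The pair of letters began at positions from −89 (Ugt2b1) to −61 (Ugt2b5), counted from the start. It was found in 62 of 32851 mouse promoter windows of the same length (250 bases before to 50 after the start, both strands), or 0.189%. It was chosen after the promoters had been read, so the count of 7 of 7 members is a description. Ugt2b38, Ugt2b37 and Ugt2b5 hold the same 13 letters there, and Ugt2b35 and Ugt2b36 share another 13. Another 6 letter patterns were searched as well. AGGTCA, the half-site of nuclear receptors, was found in 5 of 7 members (Ugt2b5, Ugt2b35, Ugt2b36, Ugt2b37 and Ugt2b38) against 16.3% of all windows, and TGTTTAC, the letters of forkhead factors, in 3 of 7 (Ugt2b35, Ugt2b37 and Ugt2b38) against 3.65%. No member window holds GTTAAT (7.10% of all windows), TTCNNNGAA (8.30%), TGACNNNGC (12.4%) or TATAAA (13.6%), where N is any base. A match of letters is a description of the window, and neighbouring copies of 1 gene share letters by descent.

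The members form a close group of copies and a looser one. Coding sequences of Ugt2b5 and Ugt2b38 are 97.0% identical, those of Ugt2b5 and Ugt2b37 94.7%, and those of Ugt2b37 and Ugt2b38 94.1%. Ugt2b35 and Ugt2b36 are 85.9 to 88.4% identical to these 3 and 88.3% to each other. Ugt2b1 and Ugt2b34 are 74.5% identical to each other and 70.7 to 73.2% to the rest. Of the 50-base windows of the reference transcript, the share that occurs exactly in a transcript of another gene was 41.7% for Ugt2b5, 37.4% for Ugt2b38 and 18.3% for Ugt2b37, and 2.07% or less for the other 4. The positions of the detector oligos were not used here, so reads of Ugt2b5, Ugt2b37 and Ugt2b38 could be split between these genes in counting, and their values are uncertain to that extent. In FROZ, recovered reads were whole numbers to within 0.02 reads in 24 of 24 libraries for Ugt2b38 and for Ugt2b1, in 12 of 24 for Ugt2b37 and in 14 of 18 values under 2000 reads for Ugt2b34. In FFPE they were whole in 16 of 24 libraries for Ugt2b36 and in 11 of 24 for Ugt2b5 and for Ugt2b34, and in 1 of 8 values under 2000 reads for Ugt2b35. An error in the estimated size of 1 read grows with the count, so high values that were not whole do not by themselves show splitting. FFPE control animal 3, for example, had 280.973 reads for Ugt2b5 and 731.93 for Ugt2b35. Values of Ugt2b37 were not whole at low counts either. FROZ control animal 3 had 25.0577 reads for Ugt2b37, but 324.996 for Ugt2b38 and 957.988 for Ugt2b1. The cause of the fractional values was not tested. For Ugt2b38 no fractional reads were seen, which does not tell whether whole reads went to the right gene.

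Libraries held 6690000 to 9840000 reads on the listed genes in FROZ and 1830000 to 6010000 in FFPE, rounded and as recovered from the step of the low values. FFPE depth differed between doses, with a median of 5280000 reads in controls and of 3380000, 3820000 and 5100000 reads at 198, 313 and 427 mg/kg-d, and the part of depth in the FFPE results was not tested. Hepatocyte markers (7 of 8 listed in FROZ, without Tf) summed to 22079.9 to 27862 CPM (the reads of a gene scaled to a common library total) in FROZ controls and 19380 to 23600 CPM at 427 mg/kg-d, and in FFPE (6 of 8 listed) to 38577 to 51133 and 27064 to 31975 CPM. Kupffer cell and macrophage markers (7 of 8, without Marco) summed to 214 to 289 CPM in FROZ controls and 133 to 205 CPM at 427 mg/kg-d, and in FFPE (4 of 8) to 252 to 477 and 158 to 226 CPM. Endothelial markers (6 of 6) summed to 129.7 to 148.7 CPM in FROZ controls and 100.2 to 122 CPM at 427 mg/kg-d, and overlapped in FFPE (4 of 6). Sums at 427 mg/kg-d overlapped controls in both preservations for stellate cell (5 of 6 listed), cholangiocyte (3 of 5), lymphocyte (3 of 4), pericentral (5 of 5) and periportal (5 of 5) markers, with the numbers listed in FROZ. In whole liver, fewer cells of a type and less RNA per cell cannot be told apart, and the part of these shifts in the Ugt2b values was not tested.

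Ugt2b38 had the largest fall of the 7 members in FROZ liver. Its level in the 6 controls ran from 22.8 to 45.0 CPM with a median of 34.6 CPM, and at 198 mg/kg-d from 16.8 to 38.8 CPM with a median of 29.7 CPM. At 313 mg/kg-d it ran from 2.99 to 13.6 CPM with a median of 6.62 CPM, and at 427 mg/kg-d from 1.51 to 6.34 CPM with a median of 2.59 CPM. The ranges at 0 and 198 overlapped, as did those at 313 and 427, and the 12 animals at 313 and 427 lay below all 12 others. Differences against controls in mean log2(CPM + 1), called log2 fold changes below, were −0.24 ± 0.27, −2.11 ± 0.27 and −3.11 ± 0.27 (SE, 6 animals against 6) at 198, 313 and 427 mg/kg-d, the last 8.62-fold lower on the CPM + 1 scale, on which all folds below are given. With an offset of 0.1 in place of 1 it was −3.48. Behind these values were 181 to 443 reads per library in controls and 14 to 53 at 427 mg/kg-d.

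Ugt2b1, another steroid-conjugating member, followed the same order of groups with a smaller range. Controls ran from 74.4 to 110.3 CPM with a median of 93.5 CPM, and animals at 198 mg/kg-d from 62.2 to 103.4 CPM with a median of 83.2 CPM. Levels at 313 mg/kg-d were 26.3 to 51.0 CPM with a median of 40.0 CPM, and at 427 mg/kg-d 15.7 to 45.5 CPM with a median of 38.8 CPM. Again the groups at 0 and 198 overlapped, those at 313 and 427 overlapped, and no animal of the upper pair of doses reached the range of the lower pair. Log2 fold changes were −0.19 ± 0.19, −1.19 ± 0.19 and −1.44 ± 0.19 (SE), the last 2.71-fold lower.

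Ugt2b37 was near the lower end of what these libraries could count. Its levels were 0.882 to 2.87 CPM in controls, 0.764 to 2.89 CPM at 198 mg/kg-d, 0 to 1.66 CPM at 313 mg/kg-d and 0.454 to 1.08 CPM at 427 mg/kg-d, which is 25 reads or fewer in any library. In 1 library at 313 mg/kg-d (animal 74) it had 0 reads, which allows up to 3 reads or 0.407 CPM at its depth, for counting error only. All neighbouring groups overlapped. Log2 fold changes of −0.10 ± 0.22, −0.66 ± 0.22 and −0.80 ± 0.22 (SE) became −0.15, −1.36 and −1.39 with an offset of 0.1 in place of 1, since the offset of 1 CPM is as large as the level itself.

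Ugt2b35 moved the other way and was listed in both preservations. In FROZ its controls ran from 388 to 547 CPM with a median of 483 CPM, and animals at 198 mg/kg-d from 639.9 to 871 CPM with a median of 686 CPM. It reached 648 to 1586 CPM with a median of 1114 CPM at 313 mg/kg-d, and 1047 to 1543 CPM with a median of 1319 CPM at 427 mg/kg-d. Every one of the 18 treated animals lay above the 6 controls, while each pair of neighbouring dose groups overlapped. Log2 fold changes were 0.56 ± 0.14, 1.19 ± 0.14 and 1.46 ± 0.14 (SE), the last 2.76-fold higher.

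In FFPE the controls of Ugt2b35 ran from 130.2 to 306 CPM with a median of 223 CPM. Levels were 526 to 916 CPM with a median of 609.9 CPM at 198 mg/kg-d, 421.7 to 1254 CPM with a median of 878 CPM at 313 mg/kg-d, and 815 to 1231 CPM with a median of 1083 CPM at 427 mg/kg-d. The 18 treated animals again lay above all controls, and the 3 dose groups overlapped their neighbours. Log2 fold changes of 1.61 ± 0.23, 1.90 ± 0.23 and 2.30 ± 0.23 (SE) correspond to 3.06-, 3.72- and 4.93-fold higher levels.

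**Figure D1:**
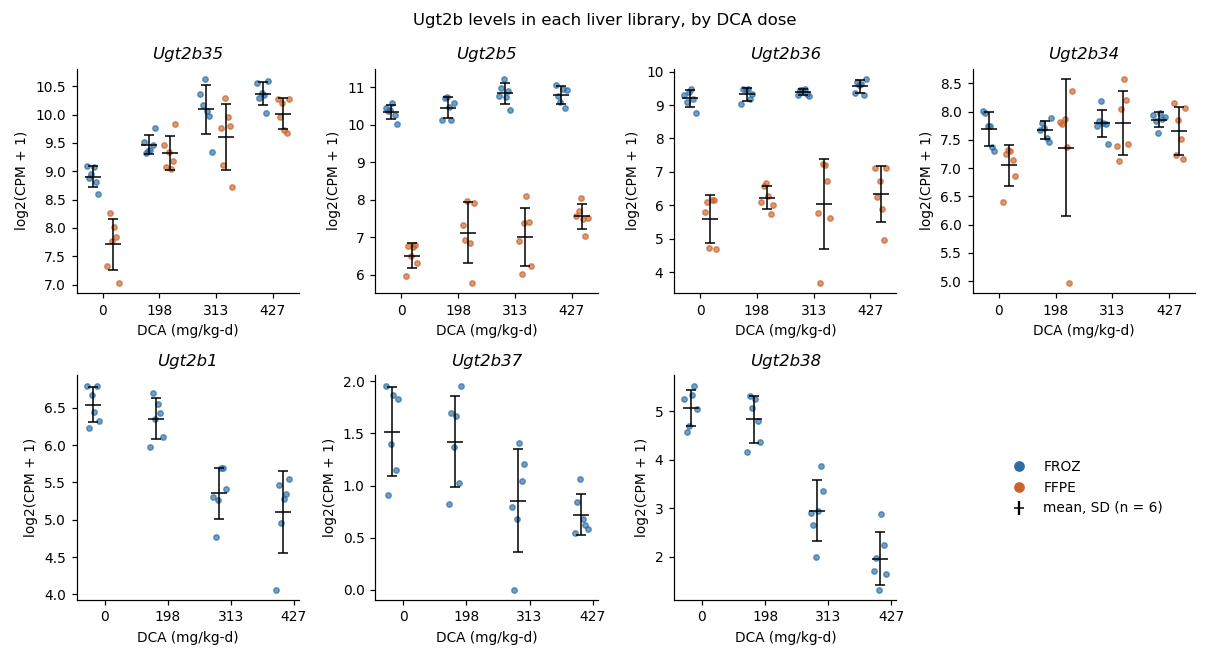
Levels of the 7 Ugt2b genes as log2(CPM + 1) (vertical axis) against DCA dose in mg/kg-d (horizontal axis), with 1 point per library, FROZ in blue, FFPE in orange, and bars for the mean and SD of 6 animals. Ugt2b35 rose from a mean of 8.90 to 10.37 in FROZ, Ugt2b1 and Ugt2b38 dropped between 198 and 313 mg/kg-d, and Ugt2b5 and Ugt2b36 lay far lower in FFPE than in FROZ at each dose.

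Ugt2b5, Ugt2b36 and Ugt2b34 shifted by less than 1 on the log2 scale in FROZ at each dose. Ugt2b5, whose product conjugates steroids, had 1029 to 1519 CPM in controls with a median of 1329 CPM, and 1394 to 2135 CPM at 427 mg/kg-d with a median of 1846 CPM. At 427 mg/kg-d, 5 of 6 animals lay above every control, and all neighbouring groups overlapped. Its log2 fold changes were 0.12 ± 0.14, 0.50 ± 0.14 and 0.45 ± 0.14 (SE).

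Ugt2b36 had 436 to 713 CPM in FROZ controls with a median of 606 CPM, and 631 to 882 CPM at 427 mg/kg-d with a median of 783 CPM. Ugt2b34 had 156 to 258 CPM in controls with a median of 214 CPM, and 195 to 252 CPM at 427 mg/kg-d with a median of 235 CPM. For both, all neighbouring groups overlapped, and 4 of 6 animals at 427 mg/kg-d lay above every control for Ugt2b36 and 0 of 6 for Ugt2b34. Log2 fold changes at 427 mg/kg-d were 0.36 ± 0.11 for Ugt2b36 and 0.17 ± 0.12 for Ugt2b34 (SE). The value of Ugt2b34 at 313 mg/kg-d was 0.10, and −0.04 with median-ratio scaling.

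The same 3 genes had wider spread in FFPE. Ugt2b5 ran from 61.5 to 110.7 CPM in controls with a median of 97.6 CPM and from 129.4 to 266 CPM at 427 mg/kg-d with a median of 185 CPM, and these ranges did not overlap. Ugt2b36 ran from 24.7 to 70.9 CPM in controls with a median of 61.0 CPM and from 29.99 to 137 CPM at 427 mg/kg-d with a median of 89.7 CPM. Ugt2b34 ran from 83.1 to 159 CPM in controls with a median of 146 CPM and from 142 to 285 CPM at 427 mg/kg-d with a median of 205 CPM. Log2 fold changes at 427 mg/kg-d were 1.05 ± 0.34 for Ugt2b5, 0.74 ± 0.49 for Ugt2b36 and 0.62 ± 0.38 for Ugt2b34 (SE).

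**Figure D2:**
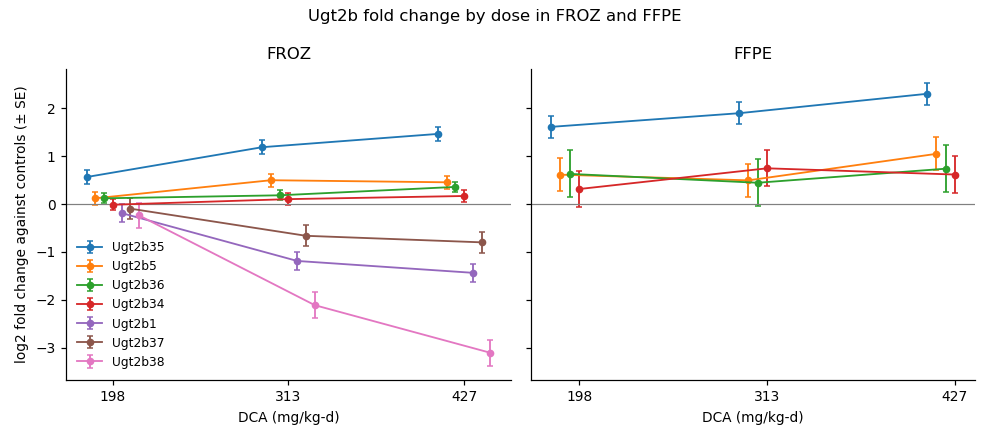
Log2 fold change against controls (vertical axis, with SE) at 198, 313 and 427 mg/kg-d (horizontal axis) for the Ugt2b genes in FROZ (left) and FFPE (right). The lines of Ugt2b38, Ugt2b1 and Ugt2b35 separate in FROZ at 313 mg/kg-d, and at 427 mg/kg-d the values run from −3.11 for Ugt2b38 to 1.46 for Ugt2b35.

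A differentially expressed gene (DEG) is here one with a Benjamini-Hochberg false discovery rate (FDR) under 0.05 and a fold change above 2 by limma. In FROZ, 0 of 7 members passed in either direction at 198 mg/kg-d, where 0.0443% of all genes passed as higher and 0.0621% as lower. At 313 mg/kg-d, 1 member was a DEG as higher (Ugt2b35) against 1.43% of genes, and 2 as lower (Ugt2b1 and Ugt2b38) against 0.887%. At 427 mg/kg-d the same 1 and 2 members were DEGs, against 2.26% and 1.24% of genes, and the same 3 had all 6 animals outside the range of controls, against 14.7% of genes. In FFPE, Ugt2b35 was the 1 of 4 members called higher at each dose, where 0.03%, 0.584% and 1.23% of genes passed at 198, 313 and 427 mg/kg-d. None of the 4 passed as lower, against 0.03%, 0.225% and 0.584%, and 2 of 4 (Ugt2b35 and Ugt2b5) had all 6 animals at 427 mg/kg-d outside the range of controls, against 4.48% of genes. Ugt2b1 and Ugt2b38, which passed as lower in FROZ, are not listed in FFPE and could not be called there. Since these contrasts chose the family, nothing is read from the counts. With median-ratio scaling, DEGs in FROZ were 4 higher and 9 lower at 198 mg/kg-d (5 and 7 as deposited), 120 and 134 at 313 mg/kg-d (161 and 100) and 192 and 193 at 427 mg/kg-d (255 and 140), and in FFPE 69 and 54 at 427 mg/kg-d (82 and 39). The median log2 fold change at 427 mg/kg-d was 0.17 over the 7 members and 0.10 over all genes in FROZ, and 0.89 over the 4 members and 0.18 over all genes in FFPE. These medians cover unlike sets, since Ugt2b1, Ugt2b37 and Ugt2b38 are missing from FFPE. The 4 shared members alone had 1.46 (Ugt2b35), 0.45 (Ugt2b5), 0.36 (Ugt2b36) and 0.17 (Ugt2b34) in FROZ. Median-ratio scaling brought the median of all genes in FROZ from 0.10 to −0.01, and Ugt2b38 then stood at −3.24, Ugt2b1 at −1.58 and Ugt2b35 at 1.32.

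The summed probe reads of the family were higher at 427 mg/kg-d than in controls. The sum in FROZ was 2123 to 3114 CPM in controls with a median of 2763 CPM, and 3348 to 4653 CPM at 427 mg/kg-d with a median of 4241 CPM. Ugt2b35 gave 17.3 to 18.3% of this sum in controls and 29.8 to 34.2% at 427 mg/kg-d, whereas Ugt2b1, Ugt2b37 and Ugt2b38 together gave 3.65 to 6.07% and 0.404 to 1.32%. For Ugt2b5 the medians were 48.2% and 42.2% in FROZ. In FFPE, where 4 members are listed, the median share went from 43.9% to 67.3% for Ugt2b35 and from 18.1% to 12.9% for Ugt2b5. These are shares of probe reads and not of transcripts, since probes differ in yield, so they are read between doses and not between genes.

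Some measures were not used to choose the family. The first was the difference between preservations in control livers, tested with limma on 1 difference per animal (its FFPE level less its FROZ level) after CPM were rescaled over the 6591 genes in both tables. It is not independent of the DCA contrasts, since the same control libraries are their baseline. All 4 shared members were lower in FFPE in 6 of 6 control animals, and each passed at an FDR under 0.05 (Benjamini-Hochberg), as did 22.4% of the 6591 genes in that direction. Ugt2b5 differed by −3.89 ± 0.22 on the log2 scale (SE, adjusted p = 1.35e-13), or 14.8-fold lower, and Ugt2b36 by −3.66 ± 0.32 (adjusted p = 4.15e-10), or 12.6-fold lower. Of all 6591 genes, 2.11% had a lower difference than Ugt2b5 and 2.66% than Ugt2b36.

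Ugt2b35 and Ugt2b34 were closer between preservations. Ugt2b35 differed by −1.25 ± 0.13 (SE, limma adjusted p = 6.45e-09), or 2.38-fold lower, and Ugt2b34 by −0.70 ± 0.27 (adjusted p = 0.0305), or 1.63-fold lower. In treated animals the mean difference of Ugt2b35 was −0.20, −0.55 and −0.42 at 198, 313 and 427 mg/kg-d. Its low FFPE control levels thus enter both this p and its larger response in FFPE. Ugt2b34 was lower in FFPE in 3, 4 and 3 of 6 animals at these doses, so neither gap was the same at all doses. The call for Ugt2b34 was lost without animal 3 (adjusted p = 0.144) or animal 4 (adjusted p = 0.062). The median of all genes was 0.28 with this scaling and −0.26 with median-ratio scaling, under which the 4 members still lay lower in FFPE, by −4.46 for Ugt2b5, −4.23 for Ugt2b36, −1.82 for Ugt2b35 and −1.27 for Ugt2b34.

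**Figure D3:**
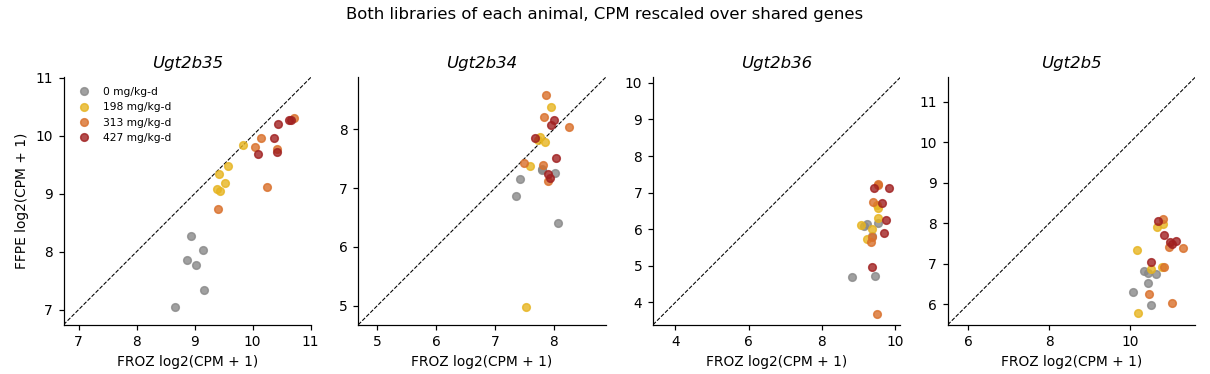
Level in the FFPE library (vertical axis) against the FROZ library (horizontal axis) of the same animal, as log2(CPM + 1) rescaled over shared genes, for the 4 shared members, coloured by dose, with a dashed line of equal values. Ugt2b5 and Ugt2b36 lie below the line in all 24 animals, with control means of 10.40 in FROZ and 6.52 in FFPE for Ugt2b5, and Ugt2b35 lies nearer to it.

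The responses to DCA in the 2 preservations can be set side by side, but both belong to the contrasts that chose the family, so their difference is given for the members without a test. For Ugt2b35, the level in FFPE less that in FROZ of the same animal, on the deposited scale, ran from −1.77 to −0.62 in controls with a median of −1.13, and from −0.33 to 0.07 at 198 mg/kg-d with a median of −0.14, so these groups did not overlap. Its response was larger in FFPE than in FROZ by 1.05 ± 0.18, 0.71 ± 0.18 and 0.84 ± 0.18 (SE, log2 scale) at 198, 313 and 427 mg/kg-d. When any 1 animal was left out, the value at 198 mg/kg-d lay between 0.93 and 1.16.

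For Ugt2b34, Ugt2b36 and Ugt2b5 the differences in response ran from −0.00 to 0.64 with SEs of 0.31 to 0.45 over the 3 doses. Over all 6591 genes limma called 2 (0.0303%), 0 (0%) and 2 (0.0303%) at 198, 313 and 427 mg/kg-d at an FDR under 0.05, and 793, 540 and 157 had an unadjusted p under 0.05. These counts moved with the fit, and nothing is read from them about the members.

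The second measure was whether animals of 1 dose that were high in FROZ were also high in FFPE, from deviations of each animal from its dose mean (4 members, 24 animals, two-sided permutation within doses). For Ugt2b35 Pearson's r was 0.72 (permutation p = 0.00080, adjusted p = 0.00320) and Spearman's rho 0.54 (permutation p = 0.0169, adjusted p = 0.0675). Without the 2 animals farthest from the median in FROZ (animals 75 and 78) r was 0.50. Within the 4 groups of 6, r was 0.38 in controls, 0.90 at 198, 0.80 at 313 and 0.84 at 427 mg/kg-d.

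For the other 3 shared members r was 0.35 for Ugt2b5 (rho 0.24), 0.30 for Ugt2b36 (rho 0.30) and 0.29 for Ugt2b34 (rho 0.30). Their adjusted permutation p of 0.162 for each r, and of 0.315, 0.195 and 0.195 for rho, did not pass. Over all 6591 shared genes the median r was 0.09, with 99.3% of genes below Ugt2b35 and 78.4 to 83.9% below the other 3.

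Some members also varied together between animals of 1 dose. Of 21 pairs in FROZ, 4 passed at an adjusted permutation p under 0.05, all positive and all among the 4 members listed in both tables. The share of all gene pairs with such r is not given, in FROZ or in FFPE. Whether the family differs in this from other liver genes was thus not tested. Ugt2b5 and Ugt2b34 had r = 0.70 (permutation p = 0.00025, adjusted p = 0.00525) and rho = 0.73 (p = 0.00015, adjusted p = 0.00315), with r = 0.70 without the 2 farthest animals. Ugt2b5 and Ugt2b36 had r = 0.65 (permutation p = 0.00068, adjusted p = 0.00714) and rho = 0.58 (p = 0.00418, adjusted p = 0.0293), with r = 0.60 without the 2 farthest animals.

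The other 2 pairs that passed on r did not pass on rho. Ugt2b34 and Ugt2b35 had r = 0.66 (permutation p = 0.00194, adjusted p = 0.0136) and rho = 0.53 (p = 0.0129, adjusted p = 0.0544), with r = 0.48 without animals 8 and 78. Ugt2b5 and Ugt2b35 had r = 0.63 (permutation p = 0.00264, adjusted p = 0.0139) and rho = 0.42 (p = 0.0605, adjusted p = 0.182), with r = 0.42 without animals 78 and 101. Within doses this last pair had r of 0.96 in controls and of −0.21, 0.88 and 0.82 at 198, 313 and 427 mg/kg-d.

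Ugt2b38, which fell, and Ugt2b35, which rose, were related by rank within doses. Ugt2b35 and Ugt2b38 had r = −0.53 (permutation p = 0.0259, adjusted p = 0.0951) and rho = −0.63 (p = 0.00273, adjusted p = 0.0287), with r = −0.43 without animals 75 and 78. Within groups r was 0.11 in controls and −0.78, −0.70 and −0.44 at 198, 313 and 427 mg/kg-d. Ugt2b1 and Ugt2b38 had r = 0.50 (permutation p = 0.0294, adjusted p = 0.0951) and rho = 0.58 (p = 0.00652, adjusted p = 0.0342), with r = 0.60 without animals 74 and 97. Neither passed on r after adjustment. Ugt2b1, which also fell, and Ugt2b35 did not pass on either measure. Their r was −0.24 (permutation p = 0.281, adjusted p = 0.421) and their rho −0.32 (p = 0.143, adjusted p = 0.299). For the 3 pairs most alike in coding sequence, r was −0.03 (Ugt2b5 and Ugt2b38), 0.01 (Ugt2b5 and Ugt2b37) and 0.31 (Ugt2b37 and Ugt2b38), and none passed, with adjusted permutation p of 0.335 or more. Ugt2b37 had 25 reads or fewer in any library. Ugt2b38 had 14 to 53 at 427 and 20 to 128 at 313 mg/kg-d, but 132 to 331 at 198 mg/kg-d and 181 to 443 in controls. The part of counting error in these r was not tested, so nothing is read from these 3 pairs about likeness in sequence.

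In FFPE all 6 pairs of the 4 listed members were positive, with r of 0.49 to 0.83 and adjusted permutation p of 6.0e-05 to 0.00628, a family of tests added after the FROZ pairs were seen. The smallest raw p, 1e-05 for Ugt2b5 and Ugt2b34, is the smallest that 100000 permutations can give. Values of 1 library share its depth and scaling. Deviations of the members had r of −0.30 to 0.31 with the log2 read number in FROZ and −0.25 to 0.04 in FFPE. The median r of a member with every other listed gene ran from −0.05 to 0.06 in FROZ and −0.01 to 0.05 in FFPE. Quartiles of these r were widest for Ugt2b5 in FROZ (−0.25 to 0.21) and for Ugt2b34 in FFPE (−0.16 to 0.30). A median near 0 does not tell whether genes of a library share an effect, and the part of such an effect was not tested.

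**Figure D4:**
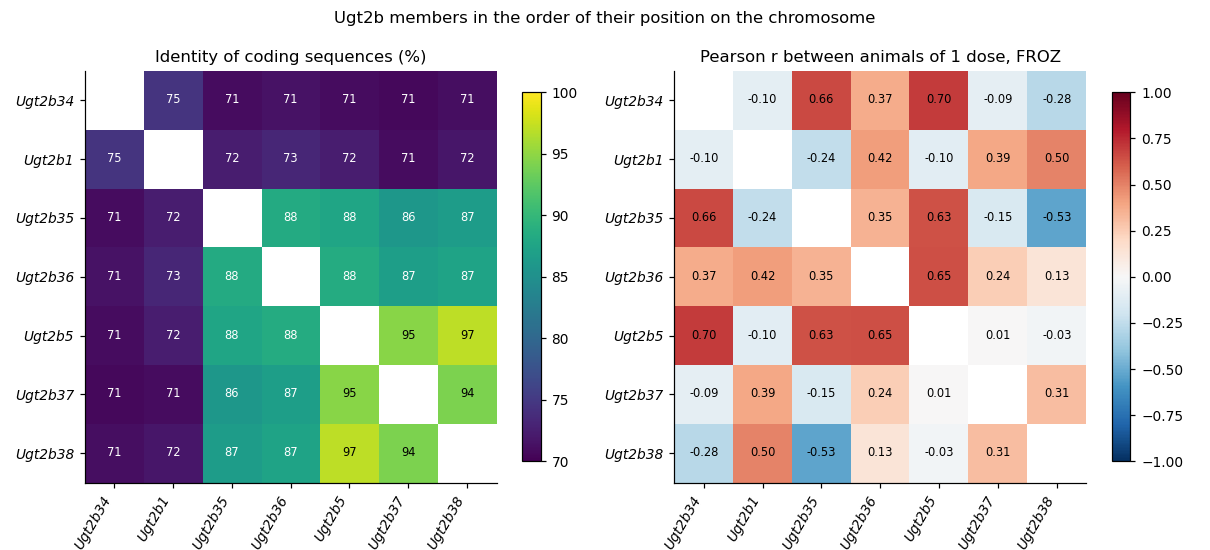
Identity of coding sequences in percent (left) and Pearson's r of deviations from the dose means over 24 FROZ libraries (right) for each pair of Ugt2b genes, ordered by position on both axes. The block of Ugt2b5, Ugt2b37 and Ugt2b38 at 94.1 to 97.0% identity on the left has no matching block on the right, where the 4 pairs with adjusted p under 0.05 join Ugt2b5, Ugt2b34, Ugt2b35 and Ugt2b36.

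The genes whose pattern over the 24 FROZ libraries was most like a member were taken as the 5 with the highest Pearson's r among 9867 genes, other Ugt2b genes not counted. Such r includes the dose effect that chose the members and is a description. For Ugt2b38 they were C8b (r = 0.97), a chain of complement component 8, Slc22a28 (0.95), Slco1a1 (0.94), an uptake transporter of organic anions, C9 (0.93), the last component of the membrane attack complex, and Selenbp2 (0.93). For Ugt2b1 they were C1s1 (0.92) and C1ra (0.91), proteases that start the complement cascade, Slco1a1 (0.90), C8b (0.90) and C1s2 (0.90). For Ugt2b35 they were Ephx1 (0.97), the microsomal epoxide hydrolase, Creg1 (0.96), Comtd1 (0.95), Aldh3a2 (0.95), a fatty aldehyde dehydrogenase, and Txnrd1 (0.95), thioredoxin reductase.

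Among the other UDP-glucuronosyltransferases (Ugt1a, Ugt2a and Ugt3a genes), 13 were listed in FROZ. By the DEG call 2 rose and 2 fell at 427 mg/kg-d, against 2.26% and 1.24% of all genes, with a median log2 fold change of 0.14. Ugt1a7c rose by 2.67 ± 0.32 (SE, limma adjusted p = 2.94e-07) from a mean of 1.38 ± 0.18 to 4.05 ± 0.53 (SD, n = 6), and Ugt1a5 rose by 1.27 ± 0.16 (adjusted p = 4.92e-07). Both had already passed at 313 mg/kg-d, where 1 of them passed with median-ratio scaling. Ugt2a2 fell by 1.26 ± 0.44 (adjusted p = 0.0287) and Ugt2a1 fell by 1.07 ± 0.37 (adjusted p = 0.0308). Ugt1a genes are alternative first exons joined to a shared end, and Ugt2a1 and Ugt2a2 overlap beside the Ugt2b cluster, so reads of each can be split in counting.

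The rest of that list did not pass in FROZ. In FFPE 1 of 9 listed genes passed at 427 mg/kg-d, where 1.23% of all genes passed as higher. This was Ugt1a6a with a rise of 1.62 ± 0.44 (SE, limma adjusted p = 0.0418), a call lost with median-ratio scaling and with an offset of 0.1. Ugt1a6a did not pass the fold threshold in FROZ (0.39 ± 0.10).

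**Figure D5:**
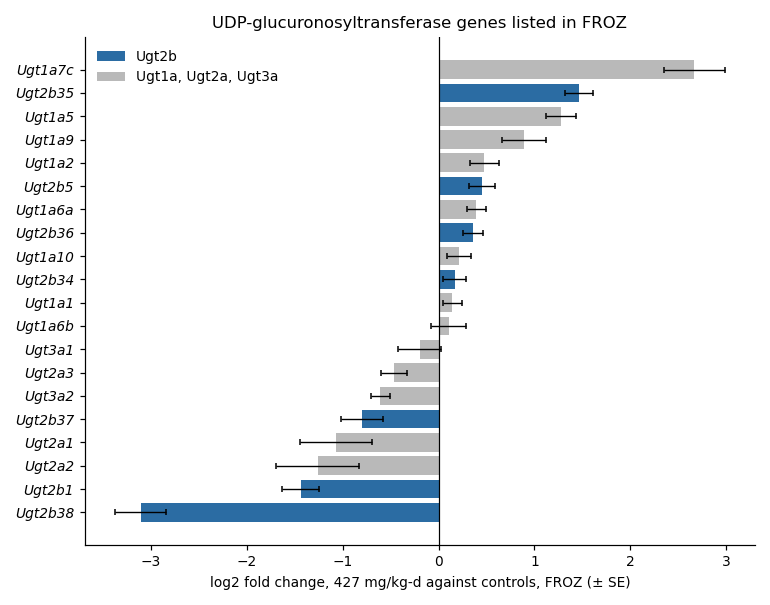
Log2 fold change at 427 mg/kg-d against controls in FROZ (horizontal axis, with SE, 6 animals against 6) for each listed UDP-glucuronosyltransferase gene (vertical axis), with Ugt2b genes in blue and the other genes in grey. Values run from −3.11 for Ugt2b38 to 2.67 for Ugt1a7c, and Ugt2b35 with 1.46 is next to Ugt1a7c.

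Genes that supply and use UDP-glucuronate were mostly below the fold threshold. Of 15 listed in FROZ, 1 was a DEG at 313 and at 427 mg/kg-d, in the higher direction, and of 12 in FFPE 1 at 427 mg/kg-d. All genes passed as higher at shares of 1.43% and 2.26% in FROZ and 1.23% in FFPE, so nothing is read from a count of 1. The DEG was Entpd5, a nucleoside diphosphatase of the endoplasmic reticulum. At 427 mg/kg-d it rose by 1.52 ± 0.21 in FROZ (SE, limma adjusted p = 2.35e-06) and 1.82 ± 0.43 in FFPE (adjusted p = 0.0115). The list's median log2 fold change at 427 mg/kg-d was 0.36 in FROZ.

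Of 11 sulfotransferase genes, which serve the parallel route of conjugation with sulfate, 1 rose and 2 fell in FROZ at 313 and at 427 mg/kg-d, and none of 6 passed by limma in FFPE, where 0 had an unadjusted p under 0.05 at 427 mg/kg-d. Over all genes in FROZ, 1.43% rose and 0.887% fell at 313 mg/kg-d, and 2.26% and 1.24% at 427 mg/kg-d. Sult2a7 rose by 1.23 ± 0.17 (SE, limma adjusted p = 3.66e-06), Sult1e1, the estrogen sulfotransferase, fell by 1.29 ± 0.34 (adjusted p = 0.00454), and Sult5a1 fell by 1.00 ± 0.17 (adjusted p = 5.04e-05) at 427 mg/kg-d in FROZ. The mean of Sult5a1 was 1.11 on the log2(CPM + 1) scale in controls and 0.109 at 427 mg/kg-d, which is under the level of 3 reads, so the size of its fall is set by the offset.

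Of 22 receptors and transcription factors of drug metabolism and liver identity, 1 passed in FROZ at 427 mg/kg-d, where 2.26% of all genes passed as higher. It was Nfe2l2, which encodes the antioxidant regulator Nrf2, with a rise of 1.54 ± 0.16 (SE, limma adjusted p = 3.1e-08). No share of all genes is given without the fold threshold, so nothing is read from such counts. There, 8 of the 22 were higher and 1 was lower at an FDR under 0.05. Nr1h4 was among the higher, with 0.97 ± 0.08 (adjusted p = 1.57e-09), and the lower was Esr1, with −0.77 ± 0.16 (adjusted p = 0.000584). In FFPE 1 of 22 passed at 427 mg/kg-d, against 1.23% of all genes as higher. This was Nr1i3, the constitutive androstane receptor, with 1.41 ± 0.34 (adjusted p = 0.0136). Its value in FROZ, 0.59 ± 0.14, did not pass the fold threshold.

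Genes whose liver expression follows the growth hormone pattern of male mice were 16 in FROZ. At 427 mg/kg-d 7 of them fell and 1 rose, against 1.24% and 2.26% of all genes, with a median of −0.63. This list, like the others, was chosen with earlier results of these data known, so its counts and p-values are a description. It holds C8b, Slco1a1 and Selenbp2, which were also among the genes most like Ugt2b38. Those with the largest change were Elovl3, a fatty acid elongase, which fell by 2.75 ± 0.26 (SE, limma adjusted p = 6.39e-09), C8b, which fell by 1.90 ± 0.12 (adjusted p = 4.92e-12), Cyp7b1, an oxysterol hydroxylase, which fell by 1.85 ± 0.26 (adjusted p = 3.54e-06), and Mup20, a urinary pheromone protein, which rose by 1.65 ± 0.38 (adjusted p = 0.00152). In this list 2 fell and 1 rose at 313 mg/kg-d (0.887% and 1.43% of all genes), and 3 fell and 0 rose with median-ratio scaling. In FFPE 1 of 14 listed genes fell at 313 mg/kg-d and 5 at 427 mg/kg-d (0.225% and 0.584% of all genes), with Elovl3, C8b and Cyp7b1 among the 5. Of 12 genes of the female pattern, 3 rose and 3 fell at 313 mg/kg-d in FROZ, and 4 rose and 1 fell at 427 mg/kg-d (4 and 2 with median-ratio scaling). The FROZ shares of all genes given for the male list apply here too. The largest changes at 427 mg/kg-d were rises of 8.02 ± 0.45 for Acot3, 4.71 ± 0.39 for Cyp2b9, 3.84 ± 0.25 for Cyp2a4 and 1.87 ± 0.27 for Abcd2 (SE, limma adjusted p of 5.48e-13, 7.31e-10, 1.24e-11 and 7.78e-06). Control means in FROZ were 1.04 for Acot3 and 0.84 for Cyp2b9 on the log2(CPM + 1) scale, so the size of their rises depends on the offset. Acot3 and Abcd2 are known targets of the lipid receptor PPAR alpha, and Cyp2b9 and Cyp2a4 are cytochrome P450 enzymes. In FFPE 2 of 4 listed genes rose at 427 mg/kg-d (1.23% of all genes), Acot3 and Cyp2a4. At 198 mg/kg-d no gene of the 6 lists was a DEG by limma in either preservation. An unadjusted p under 0.05 was seen for 19 of 89 entries in FROZ and 9 of 67 in FFPE. The share of all genes at that threshold is not given, so nothing is read from these counts.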

How the data were processed

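TempO-Seq values of 24 FROZ and 24 FFPE libraries were analysed, with groups and animal numbers from the sample labels (each animal a replicate). The authors aligned trimmed reads in Partek Flow using STAR (2.6 in the submitters' processing notes) and mm10, estimated counts by expectation maximization, added 0.0001 to all counts, dropped genes whose geometric mean was 1 or below, scaled to CPM and deposited log2(CPM + 1), separately for FROZ and FFPE. Per the labels, overly abundant probes were attenuated in all libraries alike, and the study's list of attenuated probes names no Ugt2b gene.

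Linear models used limma 3.58.1 (R 4.3.3) with a prior variance trend on mean level, over the 24 libraries of a table or the 24 paired differences, with Benjamini-Hochberg adjustment over all genes, checked on simulated data. Permutations (100000, within doses) used numpy 2.4.6. Reads were recovered from the step of low values, of which 83.5 to 96.6% per library were whole to within 0.02 reads. Without molecular identifiers, floors cover counting error only. FROZ and FFPE deviations of the same animal, paired by its number in the labels, had a median r of 0.128 over 4815 genes, and those of other animals at that dose −0.0232.

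The members and lists were chosen with earlier results of these data known. All Ugt2b genes were named, and from each list at most 4 DEGs with the largest FROZ change at 427 mg/kg-d, or, without a DEG, the 1 with the largest change. Positions and transcripts came from GENCODE vM21, promoters from RefSeq, and identities from Biopython 1.88. Alternatives were another offset, scaling, filter, variance prior, set of libraries, no pairing, and leaving out each animal. Alternative variance priors for the response difference, FFPE member pairs and the GTTA and TTAAC search were chosen after seeing the data.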

Additional observations from a re-analysis of the deposited data

Results flagged for a closer look

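In FFPE at 198 mg/kg-d, 1 animal stood apart for Ugt2b34. Animal 53 had a level of 4.97 on the log2(CPM + 1) scale, against 7.37 for the next lowest of the 6 animals. The gap was 0.706 of the range of the group, above Dixon's 95% critical value for 6 samples. It was 1 such animal in 44 groups of 6, where chance flags about 1 group in 20. Without animal 53 the log2 fold change of Ugt2b34 at 198 mg/kg-d in FFPE went from 0.31 to 0.79.

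The response of Ugt2b35 at 198 mg/kg-d was larger in FFPE than in FROZ by 1.05 on the log2 scale, with the 6 treated animals above the 6 controls in the difference between preservations. Both responses belong to the contrasts that chose the family, so this is a description, and no test of it is used. Over all alternatives run the value lay between 0.93 and 1.16.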

How the results depend on the processing

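Counts of DEGs moved by over 1.5 times in these alternatives. At 198 mg/kg-d in FROZ, 12 became 22 with an offset of 0.1 and 7 with a mean CPM of at least 10, and 7 to 15 when 1 animal was left out, with 7 without animal 53. At 198 mg/kg-d in FFPE, 4 became 7 with a mean CPM of at least 10, and 2 to 34 when 1 animal was left out, with 34 without animal 50 and 2 without animal 5, 6, 52, 53 or 54. At 313 mg/kg-d, 261 in FROZ became 467 with an offset of 0.1, and 54 in FFPE became 35 without a variance trend and 38 to 102 when 1 animal was left out (102 without animal 78). At 427 mg/kg-d, 121 in FFPE became 281 with library weights and 232 with the libraries of the 2 groups only. In FROZ at 427 mg/kg-d, 255 of 395 DEGs were higher as deposited and 192 of 385 with median-ratio scaling, which moved the median of all genes from 0.10 to −0.01.

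Without the pairing by animal (no replicate block), the genes whose response differed between preservations were 1, 1 and 2 at 198, 313 and 427 mg/kg-d, in place of 2, 0 and 2. At 198 mg/kg-d the count was 0 without a variance trend, and 0 to 26 when 1 animal was left out (26 without animal 50, 11 without 51, 1 without 7, 52 or 53, and 0 without 3, 6, 8, 49 or 54). At 313 mg/kg-d it was 0 to 2 (2 without animal 3, and 1 without 74, 76 or 77), and at 427 mg/kg-d 2 to 4 (4 without animal 4) and 4 with median-ratio scaling. The block changed no call of a shared member in controls.

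The correlation of Ugt2b5 with Ugt2b35 was −0.21 within 198 mg/kg-d. Signs of log2 fold changes changed for Ugt2b34 in FROZ at 198 mg/kg-d (−0.09 to 0.05 when 1 animal was left out) and 313 mg/kg-d, and for Ugt2b37 at 198 mg/kg-d (−0.22 to 0.02), and for no other member and dose in any alternative run. Few reads stood behind Ugt2b37 (0 to 25 per library) and Ugt2b38 at 427 mg/kg-d (14 to 53). The cause of these changes was not tested.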
